A study of Mus musculus with 12 samples.

Results

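The 39 genes described here belong to the NRF2, glutathione and antioxidant system and were picked by gene symbol from the 39017 genes of the deposited count table, in which all 39 were found. RNA was sequenced from 12 mouse lung tumors of 9 mice, 3 tumors in each of 4 groups. All mice were C57BL/6 by the strain label, C57BL6/J by the protocol, and carried floxed p53 alleles and CCSP-rtTA, in which a club cell (CCSP) promoter drives the doxycycline-dependent activator rtTA. All received 6000 viral units of Lenti.TRE-PPARaD13_PGK-Cre, a vector that brings the Cre recombinase that starts tumors and holds PPARaD13, a dominant negative form of the nuclear receptor PPARα, behind a doxycycline-responsive promoter. The groups labelled KP and KP_PPARaDN had wild-type Slc2a1, the gene of the glucose transporter Glut1, and the groups labelled KPG1 and KPG1_PPARaDN had floxed Slc2a1. KP and KPG1 mice ate a regular diet, whereas chow with doxycycline at 625 mg/kg was given over 15 days to KP_PPARaDN and KPG1_PPARaDN mice, so that diet and transgene induction differed together. Tumors were harvested at 26 weeks from their initiation, and CD45-positive immune cells were depleted before RNA was extracted. By a number in the labels that is read as the mouse, the 3 tumors of a group came from 2 KP, 3 KP_PPARaDN, 2 KPG1 and 2 KPG1_PPARaDN mice, and tumors of one mouse are not independent animals. Tumors of the same mouse were KP replicates 1 and 2, KPG1 replicates 1 and 2, and KPG1_PPARaDN replicates 1 and 3. The last pair holds both female tumors of KPG1_PPARaDN, so that sex and mouse cannot be told apart within that group. The KP mice were all female and the KPG1 mice all male, so that sex and genotype cannot be told apart between these groups, while KP_PPARaDN held 1 tumor from a female and KPG1_PPARaDN held 2. Total counts ran from 25263794 to 32654223 reads per tumor.

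NRF2, encoded by Nfe2l2, is a transcription factor that the adaptor protein KEAP1 normally delivers to a ubiquitin ligase for degradation. Oxidants and electrophiles modify cysteines of KEAP1, NRF2 then accumulates, pairs with small MAF proteins and binds antioxidant response elements in front of genes for quinone reduction, glutathione synthesis and conjugation, thioredoxin reduction, heme breakdown and iron storage. In human lung adenocarcinoma, mutations of KEAP1 are frequent and leave this program switched on. The level of Nfe2l2 mRNA does not report NRF2 protein, which is set largely by degradation, so the transcripts of its targets are the readout that RNA sequencing offers.

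The genes that define the groups were read first. Slc2a1 was at 41.7, 35.3 and 57.7 CPM (TMM-scaled CPM, that is, reads per gene as a share of the scaled library total) in the KP tumors and at 30.2, 64.0 and 39.9 CPM in the KPG1 tumors, so the groups overlapped and the floxed allele was not seen as a lower gene total on the regular diet. It was at 153, 115 and 108 CPM in KP_PPARaDN and at 23.7, 53.2 and 54.5 CPM in KPG1_PPARaDN, and these groups did not overlap. Counts per gene do not separate transcripts with the floxed exons from those without them. Ppara, to which reads from the mouse-derived transgene would be assigned, was at 2.71, 64.6 and 246 CPM in KP_PPARaDN and at 8.90, 19.2 and 17.7 CPM in KPG1_PPARaDN. The 6 tumors on the regular diet held 7.24 to 15.7 CPM. Of the 6 doxycycline tumors, 2 were far above the regular diet range, 2 were just above it at 19.2 and 17.7 CPM, and 2 were within or below it, so the group names used below are labels that these genes do not bear out in every tumor.

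Ptprc, the gene of CD45, was at 1.88 to 31.5 CPM, whereas the summed level of 6 tumor epithelial markers was 2607 to 6261 CPM, with Krt18 the most abundant. Cd3e was below the count filter and was at 0 in at least 1 tumor. In bulk RNA, fewer cells of a type and less RNA per cell cannot be told apart, and this holds for every level given here.

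The members differ widely in abundance. On the TPM scale, which divides counts by transcript length and so allows genes to be compared with each other, the glutathione transferase Gstm1 led with a mean of 1492 TPM and ranked 48 among all genes. The ferritin light chain Ftl1 followed at 1179 TPM, then the microsomal glutathione transferase Mgst1 at 941 TPM and the peroxiredoxin Prdx1, which reduces hydrogen peroxide, at 921 TPM. Nfe2l2 itself stood at 402 TPM and Keap1 at 41.5 TPM. Nqo1, the quinone reductase often used to read NRF2 activity, was scarce at 9.44 TPM, and only Abcc1, Gsta1 and Gsta2 were lower, at 4.60, 3.52 and 2.67 TPM. All 39 members passed the filter on low counts.

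**Figure D1:**
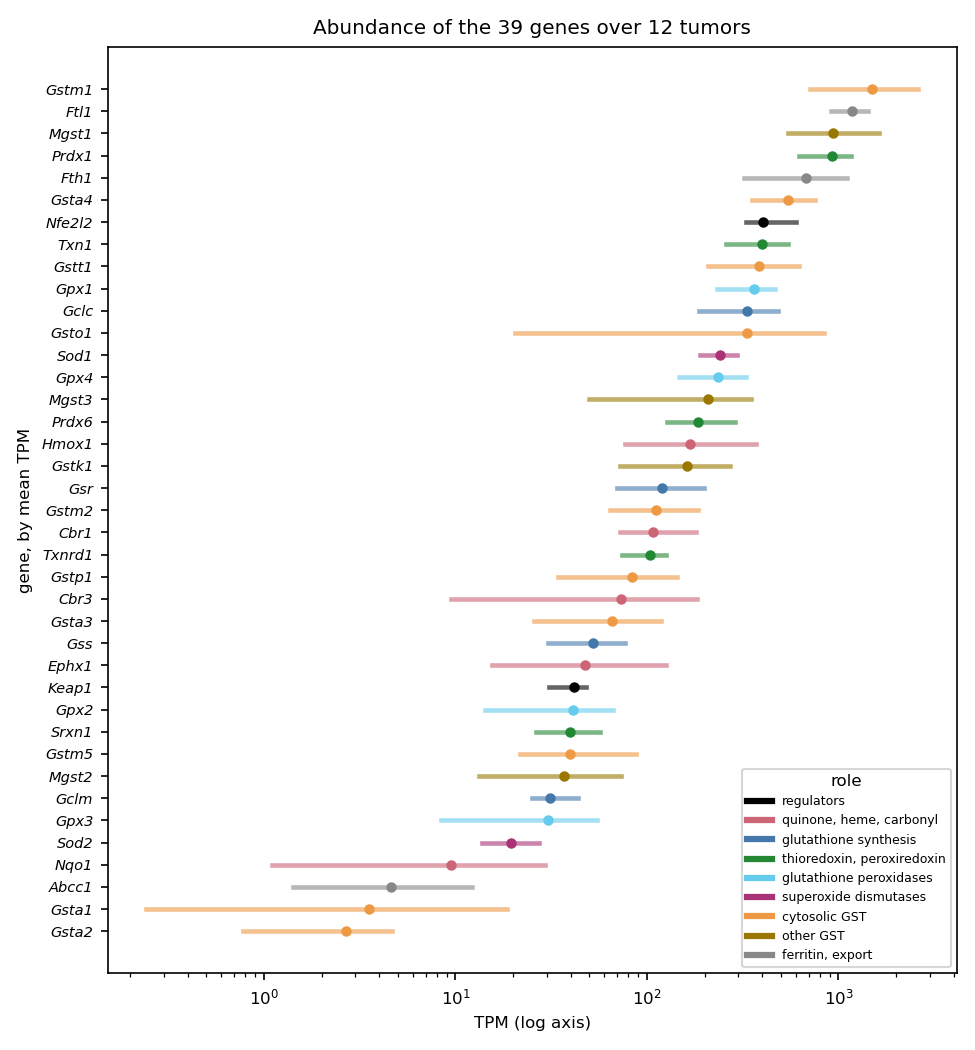
TPM of each of the 39 genes on a log axis, with a point for the mean of the 12 tumors, a line from the lowest to the highest tumor and a color for the role. Gstm1 has the highest mean, 1492 TPM, Gsta2 the lowest, 2.67 TPM, and Gsto1, Cbr3, Nqo1 and Gsta1 have the longest lines.

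Promoter sequence was read for the motif that NRF2 binds. The antioxidant response element was searched as TGACNNNGC, and in the stricter form TGACTCAGC, on both strands of RefSeq promoter windows (GRCm38.p6) that run from 250 bases before to 50 after each start site. The stricter form is contained in the looser one. Windows were given for 33 of the 39 members, and not for Abcc1, Gclc, Gsr, Gsta4, Hmox1 and Prdx6. TGACNNNGC was found in 9 of these 33 members (27.3%), namely Gclm, Gsta3, Gstm5, Mgst1, Nfe2l2, Prdx1, Sod1, Srxn1 and Txnrd1, against 14.0% of all 27025 genes with a window. TGACTCAGC was found in Prdx1 alone (3.03%), against 0.503% of all genes. Known elements of several targets lie farther upstream than these windows reach, and a match is a description of letters, not a bound site. For the factor itself and for 3 of its targets, the stretches of 29 bases around the match are shown in the strand of the gene, with the match in capitals. In Gclm, Txnrd1 and Prdx1 the element runs on the opposite strand, so its letters appear reversed and complemented.
Nfe2l2, chr2:75704885-75704913, minus strand: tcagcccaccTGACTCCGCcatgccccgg
Gclm, chr3:122245413-122245441, plus strand: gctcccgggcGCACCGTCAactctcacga
Txnrd1, chr10:82859104-82859132, plus strand: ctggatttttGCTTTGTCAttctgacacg
Prdx1, chr4:116685456-116685484, plus strand: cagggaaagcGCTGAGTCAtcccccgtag
Several members lie in gene clusters. In mm10, Gsta4 (chr9:78182774-78209349), Gsta1 (chr9:78230656-78242684) and Gsta2 (chr9:78331018-78355788) lie near each other, as do Gstm5 (chr3:107895821-107898686), Gstm2 (chr3:107981702-107986453) and Gstm1 (chr3:108012255-108017973), and Cbr1 (chr16:93605853-93610505) and Cbr3 (chr16:93683215-93690990). Members of these families are similar in sequence, and 12 of the 39 members share a stretch of at least 85 bases at 97% identity or more with another annotated transcript, so that their counts can include or lose reads of a copy. The Gsta1 transcript is 99.5% identical over 874 bases to Gm3776, which is not in the table analysed here, and 97.2% identical over 870 bases to Gsta2.

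Members also differed in how much they varied. The median coefficient of variation within groups was 24.5% for the middle member, beside 25.5% for the middle gene of all 16527 tested. The highest tumor exceeded the lowest by more than 4-fold in 18 members and by less than 2-fold in 7. Keap1 varied 1.55-fold, Nfe2l2 1.75-fold and Sod1, the cytosolic superoxide dismutase, 1.52-fold. At the other end, Gsto1, an omega-class transferase, ran from 10.6 to 578 CPM, a span of 54.8-fold, and Nqo1 from 0.484 to 15.5 CPM, a span of 32.1-fold. Gsta1 spanned 73.5-fold, but at 2 to 156 counts per tumor.

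Single tumors stood out across many members. KP replicate 2 was the lowest of the 12 tumors for 10 members and the highest for none, and KP_PPARaDN replicate 2 was the lowest for 7. KPG1 replicate 3 was the highest for 8 members, and KPG1 replicate 2 and KP_PPARaDN replicate 3 for 7 each. Together the 39 members took 0.595%, 0.490% and 0.633% of all counts in the KP tumors, 0.689%, 0.610% and 0.772% in KP_PPARaDN, 0.638%, 0.774% and 0.853% in KPG1, and 0.6815%, 0.621% and 0.705% in KPG1_PPARaDN. By group mean, 22 of the 39 members were lowest in KP and 18 were highest in KPG1.

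**Figure D2:**
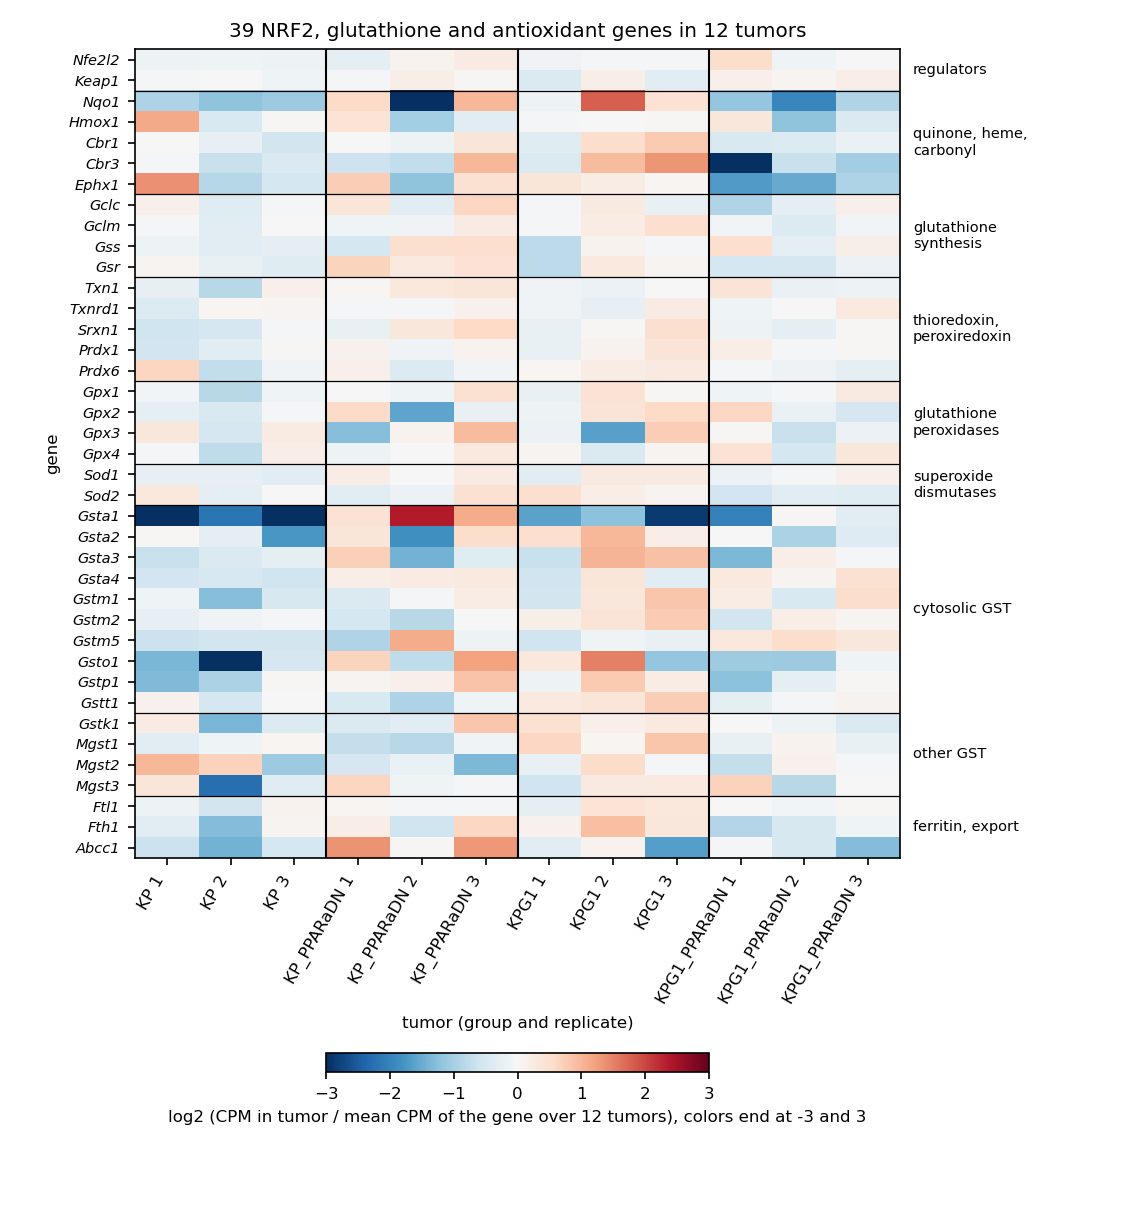
Level of each of the 39 genes in each of the 12 tumors, as log2 of its CPM over its own mean over the tumors, with blue below and red above the mean, genes ordered by role and groups separated by vertical lines. KP replicate 2 is blue in most rows, Nfe2l2 and Keap1 stay pale, and Nqo1, Cbr3, Gsta1 and Gsto1 show the strongest colors.

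The regulators hardly differed between groups. Nfe2l2 was at 397, 406 and 398 CPM in KP, at 362, 475 and 527 CPM in KP_PPARaDN, at 407, 427 and 427 CPM in KPG1 and at 634, 403 and 437 CPM in KPG1_PPARaDN. KPG1_PPARaDN replicate 1 was the highest, and doxycycline tumors spread more widely than those on the regular diet. The log2 fold change of Nfe2l2 was 0.18 ± 0.21 (SE, 3 tumors against 3) in KP_PPARaDN against KP, 0.22 ± 0.21 in KPG1_PPARaDN against KPG1 and 0.07 ± 0.21 in KPG1 against KP. Without KPG1_PPARaDN replicate 1 the second of these was -0.0029. Keap1 was at 54.7, 57.1 and 51.3 CPM in KP, 54.6, 63.6 and 57.5 CPM in KP_PPARaDN, 41.6, 63.8 and 45.3 CPM in KPG1 and 62.8, 59.6 and 64.4 CPM in KPG1_PPARaDN. Only KPG1 replicates 1 and 3 were below all other tumors.

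Of 6 widely used NRF2 targets, Nqo1 differed most between groups. It was at 2.36, 1.94 and 2.09 CPM in KP, at 6.61, 0.484 and 8.88 CPM in KP_PPARaDN, at 4.04, 15.5 and 6.01 CPM in KPG1 and at 1.98, 1.15 and 2.40 CPM in KPG1_PPARaDN. All 3 KPG1 tumors were above all KP and all KPG1_PPARaDN tumors, while the KP_PPARaDN tumors lay on both sides of KP. Hmox1, which opens the heme ring, was at 188, 62.1 and 86.9 CPM in KP, 113, 42.2 and 67.9 CPM in KP_PPARaDN, 82.3, 84.8 and 88.0 CPM in KPG1 and 109, 36.9 and 63.7 CPM in KPG1_PPARaDN. KP replicate 1 was the highest, and the groups overlapped in every pair.

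Gclc and Gclm encode the catalytic and modifier subunits of glutamate-cysteine ligase, the rate-limiting enzyme of glutathione synthesis. Gclc was at 409, 284 and 361 CPM in KP, 473, 295 and 567 CPM in KP_PPARaDN, 353, 446 and 316 CPM in KPG1 and 197, 299 and 409 CPM in KPG1_PPARaDN, and all groups overlapped. Gclm was at 55.2, 46.4 and 57.6 CPM in KP, 52.5, 53.4 and 68.6 CPM in KP_PPARaDN, 56.4, 67.2 and 82.0 CPM in KPG1 and 54.1, 43.5 and 54.2 CPM in KPG1_PPARaDN. Its KPG1 tumors were all above its KPG1_PPARaDN tumors, and 1 stretch of the Gclm transcript matches Ppia at 97.9% over 287 bases.

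Txnrd1, the cytosolic thioredoxin reductase, was at 159.6, 222 and 224 CPM in KP, 207, 206 and 232 CPM in KP_PPARaDN, 197, 179 and 249 CPM in KPG1 and 193, 213 and 259.7 CPM in KPG1_PPARaDN. It was the steadiest of the 6 targets, with a span of 1.63-fold. Srxn1, the sulfiredoxin that restores overoxidized peroxiredoxins, was at 21.6, 23.2 and 31.8 CPM in KP, 28.1, 41.5 and 49.7 CPM in KP_PPARaDN, 28.0, 33.4 and 45.7 CPM in KPG1 and 29.7, 27.1 and 33.5 CPM in KPG1_PPARaDN. Its groups overlapped in every pair.

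**Figure D3:**
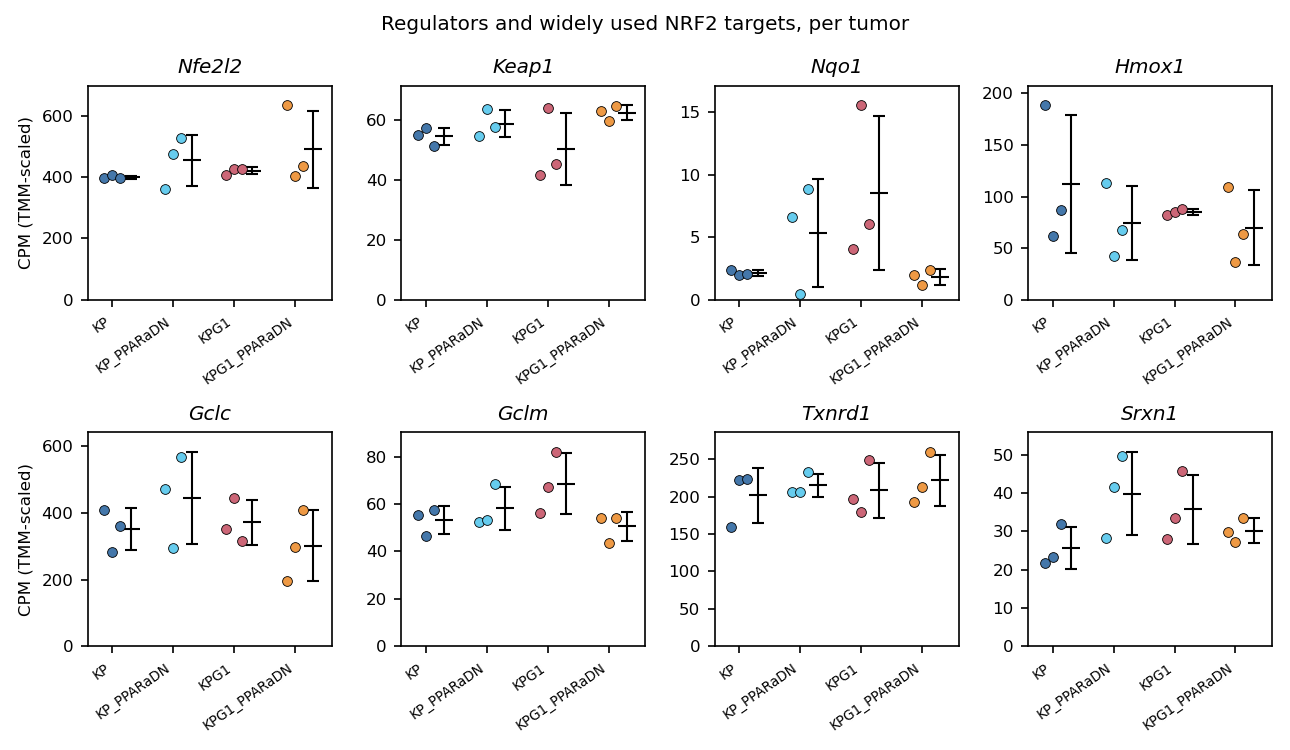
CPM (TMM-scaled, each axis from 0) of Nfe2l2, Keap1 and 6 NRF2 targets, with a point per tumor and the mean ± SD of the 3 tumors of a group beside them. Nfe2l2, Keap1 and Txnrd1 lie at like levels in all groups, whereas Nqo1 reaches 15.5 CPM in KPG1 and stays at or under 2.40 CPM in KP and KPG1_PPARaDN.

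Of the abundant members, Prdx1 was at 549, 645 and 841 CPM in KP, 896, 756 and 872 CPM in KP_PPARaDN, 695, 881 and 1060.4 CPM in KPG1 and 942, 798 and 839 CPM in KPG1_PPARaDN. Gstm1 was at 588, 268 and 461 CPM in KP, 476, 632 and 758 CPM in KP_PPARaDN, 439, 812 and 1156 CPM in KPG1 and 756, 469.6 and 925 CPM in KPG1_PPARaDN. For both genes the groups overlapped in every pair, and Prdx1 shares near-identical copies whose counts come to 21.3% of its own. Sod1, which turns superoxide into hydrogen peroxide, was at 234, 234 and 225 CPM in KP and at 328, 275 and 331 CPM in KP_PPARaDN, without overlap, and at 222, 337 and 335 CPM in KPG1 and 247, 270.1 and 312 CPM in KPG1_PPARaDN, which overlapped.

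For the PPARα dominant negative in tumors with wild-type Slc2a1, KP_PPARaDN was compared with KP. Most members were higher with doxycycline, 31 of 39 against 8 lower, with a median log2 fold change of 0.36, beside -0.01 and 49.2% higher over all genes tested. None passed the adjusted threshold of 0.05 in edgeR's quasi-likelihood test, in which 1 gene of 16527 (0.00605%) passed, and the smallest adjusted p of a member was 0.24. At an unadjusted p under 0.05, which is not a call, 8 members were higher (beside 5.32% of all genes) and 1 was lower (beside 6.03%). The groups did not overlap for 6 members that were higher, Gsr, Sod1, Gsta1, Gsta4, Gstp1 and Abcc1 (beside 6.55% of all genes), and for 0 that were lower (beside 6.70%). With limma voom 0 members passed, and with DESeq2, which called 2.25% of all genes here, 2 passed, Gsta1 (adjusted p = 0.00011) and Abcc1 (adjusted p = 0.0237).

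The glutathione transferases, which attach glutathione to reactive compounds, were the largest role. Of the 10 cytosolic ones, 8 were higher in KP_PPARaDN and 4 had an unadjusted p under 0.05. Gsta1 had 2, 7 and 2 counts in the KP tumors and 38, 156 and 63 in the KP_PPARaDN tumors, or 0.0685, 0.212 and 0.0696 CPM against 1.30, 5.04 and 2.11 CPM. The groups did not overlap, and the log2 fold change was 4.52 ± 0.81 (edgeR adjusted p = 0.24). Summed over the group, 257 counts stood against 11, a ratio of 23.6 with an exact 95% interval from 12.97 to 47.9 that covers counting error only. Gsta4, which handles lipid peroxidation products such as hydroxynonenal, was at 135, 144 and 133 CPM in KP and at 230.2, 239 and 245 CPM in KP_PPARaDN, and the groups did not overlap. Its log2 fold change was 0.79 ± 0.23 (edgeR adjusted p = 0.31).

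Abcc1, an exporter of glutathione conjugates, was at 13.04, 7.64 and 14.2 CPM in KP and at 51.4, 20.7 and 50.2 CPM in KP_PPARaDN. No tumor overlapped, and the log2 fold change was 1.81 ± 0.50 (edgeR adjusted p = 0.31). Gsr, the reductase that recycles oxidized glutathione, was at 101, 82.6 and 74.8 CPM in KP and at 152, 118 and 130.1 CPM in KP_PPARaDN, also without overlap, with a log2 fold change of 0.63 ± 0.26 (edgeR adjusted p = 0.40). Mgst2, a microsomal transferase, was the member with an unadjusted p under 0.05 on the lower side, at 78.4, 63.4 and 18.4 CPM in KP and 27.7, 34.3 and 15.3 CPM in KP_PPARaDN. Its groups overlapped through KP replicate 3, and the log2 fold change was -1.05 ± 0.48 (edgeR adjusted p = 0.44). The count of 1 lower member stayed at 1 without KP replicate 3 or KP_PPARaDN replicate 2 or 3. It became 0 without any other single tumor, with limma voom, with sex as a covariate and with tumors of a mouse summed.

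By role, all 4 genes of glutathione synthesis and recycling, all 4 glutathione peroxidases and all 3 ferritin and export genes were higher in KP_PPARaDN, with medians of 0.41, 0.16 and 0.57 on the log2 scale. Of the 88 other pathway genes tested, 49 were higher and 39 lower (median 0.13), and none passed the adjusted threshold in edgeR, with 9 higher and 4 lower at an unadjusted p under 0.05. Esd (0.64 ± 0.23), the small MAF gene Mafk (0.65 ± 0.26) and Pir (0.74 ± 0.32, log2 fold changes) had the smallest unadjusted p of those that were higher. The theta-class transferase Gstt2 (-0.90 ± 0.18), Gpx8 (-3.62 ± 1.24) and Akr1c18 (-1.98 ± 0.84) had the smallest of those that were lower. The median of 0.13 became 0.06 without KP_PPARaDN replicate 1 or 3, 0.09 without KP replicate 2 and 0.16 without KP replicate 1. With sex as a covariate that median was 0.03. The 9 higher became 2 without KP replicate 2 or KP_PPARaDN replicate 1, 4 without KPG1_PPARaDN replicate 2 and 5 without KP_PPARaDN replicate 2, KPG1 replicate 1 or KPG1 replicate 3. Left out in turn, KP replicate 2 and KP_PPARaDN replicate 3 moved the members' counts the most: without them the members at an unadjusted p under 0.05 and higher numbered 3 and 4 in place of 8, 5 without KP replicate 1, and the median fell to 0.18 without KP_PPARaDN replicate 3. Without KP_PPARaDN replicate 1, the doxycycline tumor with 2.71 CPM of Ppara, 30 members were higher, and the count was 7. With sex as a covariate it was 5, with 26 members higher, and it was also 5 once counts were added up per mouse. The share of all genes higher at that level moved as well. In place of 5.32% it was 3.24% without KP replicate 2, 6.13% without KP_PPARaDN replicate 3 and 4.83% without KP replicate 1. It was 3.85% without KP_PPARaDN replicate 1, 3.93% with sex as a covariate and 4.43% with counts added up per mouse.

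Fibroblast and red cell markers differed along the same groups. The summed level of 6 fibroblast markers, with Col1a2 the most abundant, was 133, 113 and 241 CPM in KP and 410.3, 529 and 266 CPM in KP_PPARaDN, with 5 of 6 higher and Lum at 0 in at least 1 tumor. That of 5 erythroid markers, with Hbb-bs the most abundant, was 583, 319 and 765 CPM against 1320, 849.9 and 903 CPM, with 4 of 5 higher. Tumor epithelial markers were higher for 5 of 6 (median 0.44 on the log2 scale), with sums of 4750.3, 2607 and 4335 CPM against 6261, 4291 and 5775 CPM that overlapped, and endothelial markers for 5 of 6 (0.14). Alveolar type 2 markers were lower for 7 of 8 (-0.48) and ciliated cell markers, led by Tppp3, for 5 of 5 (-0.68), and the sums of both overlapped. The part of these cells in the members' levels was not tested.

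In the Slc2a1-floxed background, KPG1_PPARaDN against KPG1, the direction of most members was the other way. Here 29 of 39 members were lower with doxycycline and 10 higher, with a median log2 fold change of -0.28, beside 0.02 over all genes tested. None passed the adjusted threshold in edgeR, in which 1 gene (0.00605%) passed, nor in DESeq2 or limma voom, and the smallest adjusted p of a member was 0.42. With an unadjusted p under 0.05, 9 members were lower (beside 4.50% of all genes) and 0 higher (beside 6.25%). The groups did not overlap for 10 members that were lower, namely Nqo1, Cbr3, Ephx1, Gclm, Prdx6, Sod2, Gsta2, Gstt1, Gstk1 and Fth1 (beside 9.41% of all genes), and for 1 that was higher, Gstm5 (beside 11.2%).

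All 5 genes of quinone, heme and carbonyl handling were lower, with a median of -1.55 on the log2 scale, and 4 of them had an unadjusted p under 0.05. Cbr3, a carbonyl reductase, was at 20.2, 53.2 and 68.7 CPM in KPG1 and at 3.31, 17.2 and 13.4 CPM in KPG1_PPARaDN. The groups did not overlap, and the log2 fold change was -2.07 ± 0.65 (edgeR adjusted p = 0.42). The related Cbr1, which reduces quinones and carbonyls, was at 63.0, 116 and 139 CPM against 59.3, 61.2 and 70.0 CPM, overlapping only through KPG1 replicate 1, with a log2 fold change of -0.74 ± 0.27 (edgeR adjusted p = 0.42). For Nqo1, whose values were given above, the log2 fold change was -2.21 ± 0.82 (edgeR adjusted p = 0.42).

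Sod2, the mitochondrial superoxide dismutase, was at 79.3, 66.1 and 61.0 CPM in KPG1 and at 38.5, 45.9 and 44.7 CPM in KPG1_PPARaDN. The groups did not overlap, and the log2 fold change was -0.68 ± 0.24 (edgeR adjusted p = 0.42). Sod2 transcripts share 3110 bases at 98.3% identity with Rps6ka2. The ferritin heavy chain gene Fth1, which stores iron in a less reactive form, was at 758, 1313 and 885 CPM in KPG1 and at 378, 500 and 640.2 CPM in KPG1_PPARaDN, again without overlap, with a log2 fold change of -0.96 ± 0.40 (edgeR adjusted p = 0.44). The regulators were not among the lower members, and both were higher, with a median of 0.27. The log2 fold change of Nfe2l2 was -0.0029 without KPG1_PPARaDN replicate 1.

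Of the 88 other pathway genes, 55 were lower and 33 higher (median -0.15), none passed the adjusted threshold in edgeR, and 12 were lower and 1 higher at an unadjusted p under 0.05. Gstz1, a zeta-class transferase (-1.03 ± 0.24), Txnip, which binds and inhibits thioredoxin (-1.39 ± 0.37), and Aox1, aldehyde oxidase (-1.45 ± 0.42, log2 fold changes), had the smallest unadjusted p of those that were lower, and Pir (0.73 ± 0.32) was the 1 that was higher at that level. With sex as a covariate the 12 lower became 3. The counts of members moved with single tumors, and so did the shares of all genes. Without KPG1_PPARaDN replicate 1 or 2 the members at an unadjusted p under 0.05 and lower numbered 2 and 3 in place of 9. The shares of all genes lower at that level were then 2.32% and 3.26% in place of 4.50%. Without KPG1 replicate 2 or 3 the members numbered 5 each, beside 3.20% and 5.41% of all genes. With sex as a covariate, which varied within the doxycycline groups alone, 0 members were lower at that level (beside 1.49%). In that fit 30 were lower in all, and the median was -0.25. The count was 4 once counts were added up per mouse (beside 2.80%). The median moved to -0.18 without KPG1_PPARaDN replicate 2.

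Surfactant genes were also lower here. The summed level of 8 alveolar type 2 markers, with Sftpc the most abundant, was 42432, 70994 and 58391 CPM in KPG1 and 24486, 31725 and 36914 CPM in KPG1_PPARaDN, with 8 of 8 lower, 2 of them at an unadjusted p under 0.05 in edgeR, and the sums did not overlap. No marker of that list was at 0. All 6 endothelial markers were lower too, with sums led by Vwf of 446, 164.8 and 366 CPM against 209, 153 and 239 CPM that overlapped. Erythroid markers were higher for 4 of 5 (median 0.76 on the log2 scale), and Hba-a2, which is nearly identical to Hba-a1, was the 1 gene past the adjusted threshold in edgeR (7.72 ± 0.78, adjusted p = 0.0105). Of 5 club cell markers 3 were higher and 2 lower, both of the latter at an unadjusted p under 0.05, and 5 of 6 fibroblast markers were lower (-0.16). The part of these cells in the members' levels was not tested.

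**Figure D4:**
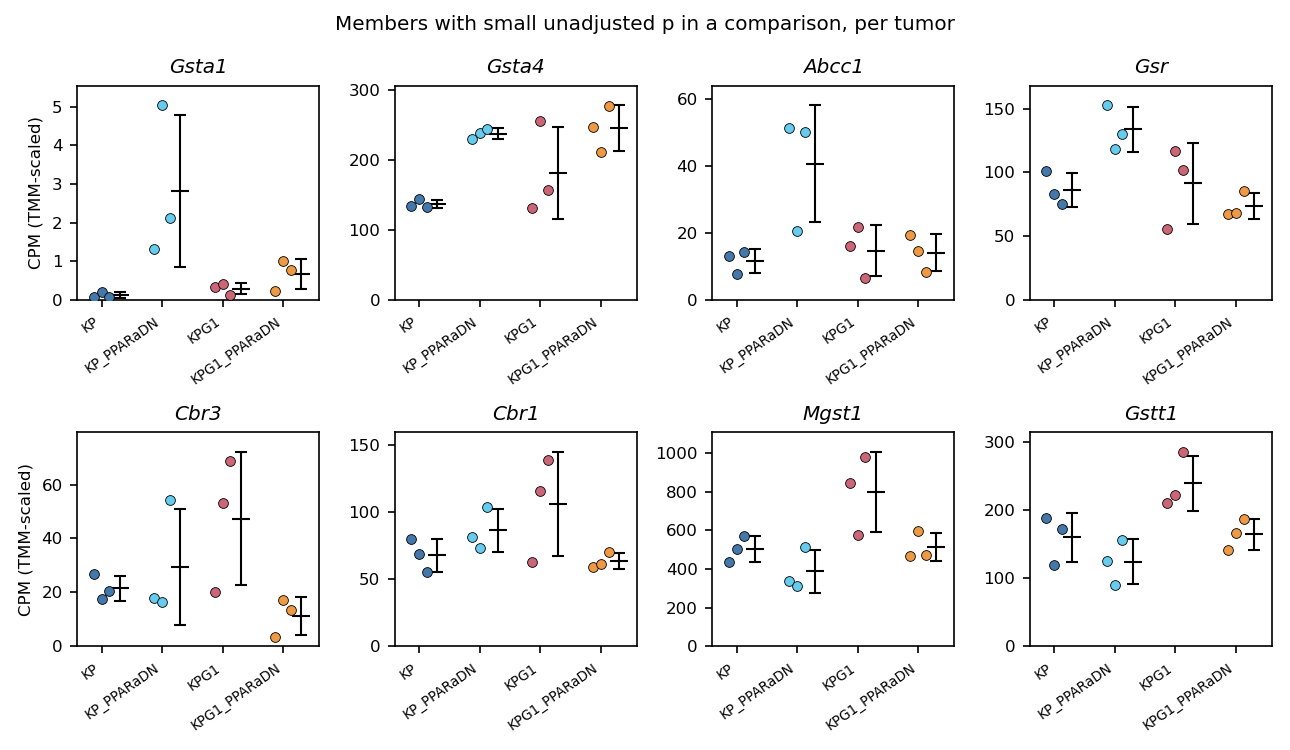
CPM (TMM-scaled, each axis from 0) of 8 members, with a point per tumor and the mean ± SD of the 3 tumors of a group beside them. Gsta1, Gsta4, Abcc1 and Gsr of KP_PPARaDN lie above KP without overlap, and Cbr3 of KPG1_PPARaDN lies below KPG1 without overlap.

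For the effect of the floxed allele on the regular diet, tumors labelled KPG1 were compared with those labelled KP, a comparison in which sex differed as well and Slc2a1 did not. Of the 39 members 34 were higher in KPG1 and 5 lower, with a median log2 fold change of 0.37, beside -0.03 and 46.9% higher over all genes tested. None passed the adjusted threshold in edgeR, in which 6 genes (0.0363%) passed, nor in DESeq2 or limma voom, and the smallest adjusted p of a member was 0.78. At an unadjusted p under 0.05, 8 members were higher (beside 2.42% of all genes) and 0 lower (beside 3.81%), and groups did not overlap for 7 higher (beside 4.82%) and 0 lower (beside 5.13%). KP is the reference here as it was for KP_PPARaDN, so that a low KP tumor raises both comparisons.

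All 10 cytosolic transferases were higher in KPG1, with a median of 0.92 on the log2 scale. Gstt1, a theta-class transferase, was at 189, 119.5 and 173 CPM in KP and at 211, 223 and 286 CPM in KPG1, without overlap, with a log2 fold change of 0.58 ± 0.25 (edgeR adjusted p = 0.79). Mgst1, a microsomal transferase with peroxidase activity, was at 435, 506 and 572 CPM in KP and at 846, 575 and 981 CPM in KPG1, also without overlap, with a log2 fold change of 0.67 ± 0.26 (edgeR adjusted p = 0.78). For Nqo1, whose groups did not overlap, the log2 fold change was 2.00 ± 0.81 (edgeR adjusted p = 0.79).

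Cbr1 was at 79.9, 68.5 and 55.4 CPM in KP, and 2 of the 3 KPG1 tumors, at 116 and 139 CPM, were above all of these, with a log2 fold change of 0.64 ± 0.27 (edgeR adjusted p = 0.79). Gsto1 was at 78.8, 10.6 and 143 CPM in KP and at 251, 578 and 91.6 CPM in KPG1, and its groups overlapped although the log2 fold change was 1.99 ± 0.85 (edgeR adjusted p = 0.79). Of the 88 other pathway genes 61 were higher and 27 lower (median 0.29), with 6 higher and 1 lower at an unadjusted p under 0.05 and none past the adjusted threshold in edgeR. The mitochondrial peroxiredoxin Prdx3 (1.11 ± 0.32), Esd (0.73 ± 0.23) and the mu-class transferase Gstm7 (1.34 ± 0.43) had, by log2 fold change and SE, the smallest unadjusted p of those that were higher, and Cbr2 (-2.42 ± 1.102) was the 1 that was lower at that level. Cbr2 was at 8.28 to 413 CPM in KP and at 14.9 to 50.7 CPM in KPG1, so its groups overlapped. The 1 lower became 0 without KP replicate 3, KP_PPARaDN replicate 2, KPG1 replicate 2 or 3, or any 1 KPG1_PPARaDN tumor. The 6 higher became 13 without KPG1 replicate 1 and 10 without KP replicate 1, KP replicate 3 or KP_PPARaDN replicate 2. The median of 0.29 became 0.18 without KPG1 replicate 2.

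Here too the counts moved with single tumors, and so did the shares of all genes. Without KP replicate 2, the tumor lowest for 10 members, 0 members were higher at an unadjusted p under 0.05 in place of 8. The share of all genes higher at that level was then 1.56% in place of 2.42%. The number of members was 5 without KP replicate 1 (beside 2.53% of all genes) and 2 without KPG1 replicate 2 (beside 1.4%). It was 2 without KPG1 replicate 3 (beside 3.41%) and 14 without KPG1 replicate 1 (beside 2.37%). Once sex was a covariate, which varied within neither of these groups, it was 0 (beside 1.52%). In that fit 31 members were higher in all, and the median was 0.32. The number was 3 once counts were added up per mouse (beside 1.18%). The summed level of 7 macrophage markers was 805, 978 and 2930.0 CPM in KP. In KPG1 it was 1906, 2097 and 463 CPM, so the groups overlapped, although 7 of 7 markers were lower by the fit. Lyz2 alone was at 655, 930 and 2861 CPM in KP and at 1874, 2056 and 422 CPM in KPG1. The sums therefore mostly show Lyz2, and which cells its reads came from was not tested. Each of the other macrophage markers had a mean of 0.533 to 20.2 CPM over the tumors. The summed level of 5 club cell markers, with Cyp2f2 the most abundant, was 153, 123 and 105 CPM in KP. It was 424, 339 and 185 CPM in KPG1, without overlap, with 3 of 5 markers higher and none at 0. Alveolar type 2 markers were higher for 6 of 8 (median 0.28 on the log2 scale), leukocyte markers were lower for 4 of 4 tested (-1.29), and the erythroid Hba-a2 was lower and 1 of the 6 genes past the adjusted threshold in edgeR (-5.99 ± 0.74, adjusted p = 0.0248). Their part in the members' levels was not tested.

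On the doxycycline diet, tumors labelled KPG1_PPARaDN against KP_PPARaDN, 26 members were lower and 13 higher, with a median log2 fold change of -0.17, beside 0.01 over all genes tested. None passed the adjusted threshold in edgeR, in which 5 genes (0.0303%) passed, nor in DESeq2 or limma voom, and the smallest adjusted p of a member was 0.46. With an unadjusted p under 0.05, 4 members were lower (beside 4.44% of all genes) and 0 higher (beside 5.25%), and groups did not overlap for 5 lower (beside 7.25%) and 0 higher (beside 10.3%). Gsr was at 152, 118 and 130.1 CPM in KP_PPARaDN and at 66.9, 68.1 and 85.4 CPM in KPG1_PPARaDN, without overlap, with a log2 fold change of -0.86 ± 0.26 (edgeR adjusted p = 0.46). Abcc1 was at 51.4, 20.7 and 50.2 CPM against 19.4, 14.5 and 8.28 CPM, without overlap, with a log2 fold change of -1.53 ± 0.50 (edgeR adjusted p = 0.48).

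Gsta1 had 38, 156 and 63 counts in KP_PPARaDN and 7, 31 and 25 in KPG1_PPARaDN, which on the CPM scale did not overlap, with a log2 fold change of -2.07 ± 0.70 (edgeR adjusted p = 0.48). Ephx1, the microsomal epoxide hydrolase, was at 45.6, 11.9 and 37.4 CPM in KP_PPARaDN and at 8.43, 9.54 and 14.4 CPM in KPG1_PPARaDN, and these overlapped through KP_PPARaDN replicate 2. Its log2 fold change was -1.55 ± 0.59 (edgeR adjusted p = 0.50). Of the 88 other pathway genes 55 were lower and 33 higher, with 4 lower and 3 higher at an unadjusted p under 0.05 and none past the adjusted threshold in edgeR. Gstt2 (0.78 ± 0.18), Hpgds (2.09 ± 0.69) and Idh1 (0.48 ± 0.19, log2 fold changes) had the smallest unadjusted p of those that were higher, and the prostaglandin E synthase Ptges (-1.58 ± 0.55), Hmox2 (-0.44 ± 0.18) and the exporter Abcc4 (-0.72 ± 0.31) of those that were lower. The 4 lower became 8 without KP replicate 2, 2 without KP_PPARaDN replicate 3 and 1 without KPG1_PPARaDN replicate 1 or 2. The 3 higher became 5 without KP replicate 1 or KPG1_PPARaDN replicate 2, and 2 without KP_PPARaDN replicate 2 or KPG1_PPARaDN replicate 3. All 6 fibroblast markers were lower as well, with sums of 410.3, 529 and 266 CPM against 169.6, 127 and 183 CPM that did not overlap. Markers of other cells were lower too, by the fit, for 7 of 7 macrophage markers (median -0.92 on the log2 scale), 6 of 6 endothelial (-0.82), 4 of 4 leukocyte (-0.62), 5 of 6 tumor epithelial (-0.41) and 6 of 8 alveolar type 2 markers (-0.53), whereas 4 of 5 ciliated (0.99) and 3 of 5 club cell markers (0.80) were higher. The part of these cells in the members' levels was not tested. The members' median moved to -0.05 without KP_PPARaDN replicate 3, and the 4 members lower at an unadjusted p under 0.05 became 7 without KP_PPARaDN replicate 2, 6 without KP_PPARaDN replicate 1 or KPG1_PPARaDN replicate 3, and 2 with sex as a covariate. Without KP_PPARaDN replicate 3, 3 members were lower and 3 higher at that level.

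**Figure D5:**
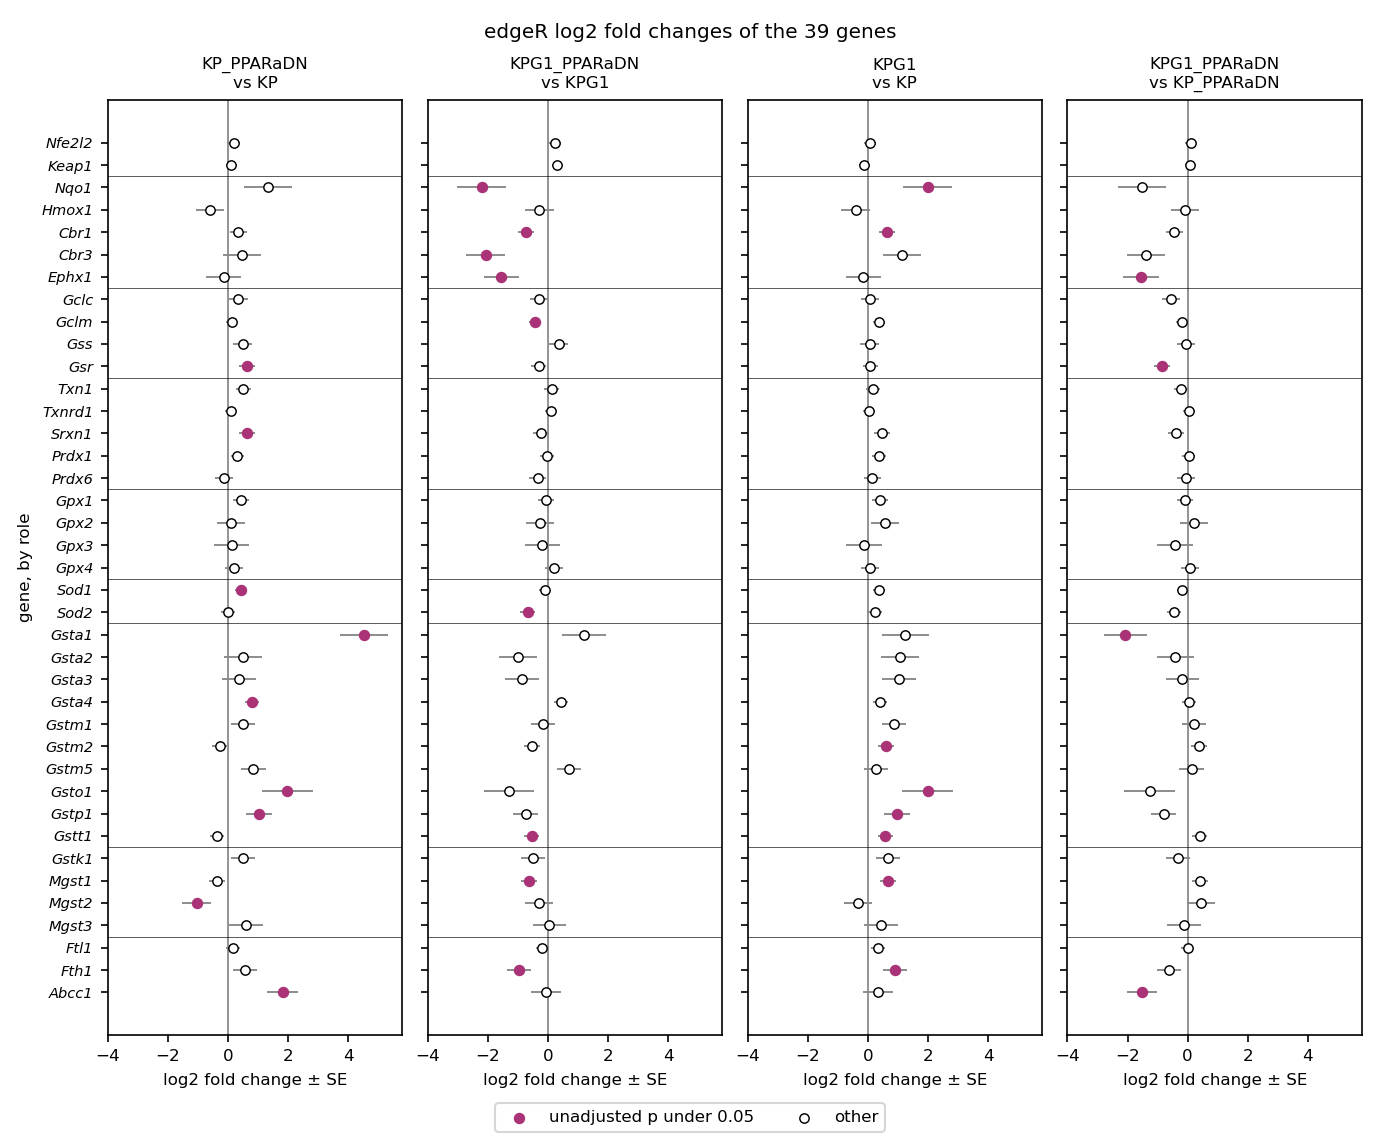
edgeR log2 fold change ± SE of each of the 39 genes in 4 comparisons, 3 tumors against 3, with filled points for an unadjusted p under 0.05 and genes ordered by role. Points lie mostly right of 0 in KP_PPARaDN against KP and in KPG1 against KP, which share the KP tumors. They lie mostly left of 0 in KPG1_PPARaDN against KPG1, which shares the KPG1 tumors with KPG1 against KP. None passed the adjusted threshold.

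Averaged over both genotypes, doxycycline left the members balanced, with 21 higher and 18 lower and a median log2 fold change of 0.02, beside 0.01 over all genes tested. In edgeR none of them passed the adjusted threshold, which 3 genes (0.0182%) passed, and the smallest adjusted p of a member was 0.15. With an unadjusted p under 0.05, 4 were higher (beside 5.14% of all genes) and 2 lower (beside 4.91%). Gsta1 (2.86 ± 0.54), Gsta4 (0.61 ± 0.16), the mu-class transferase Gstm5 (0.77 ± 0.29) and Abcc1 (0.87 ± 0.35) were the higher ones on the log2 scale, and Mgst1 (-0.51 ± 0.18) and Gstt1 (-0.46 ± 0.17) the lower. Between KPG1 and KPG1_PPARaDN, however, Gsta1, Gsta4 and Abcc1 overlapped. There Gsta1 had 8, 12 and 4 counts against 7, 31 and 25, and Gsta4 was at 132, 256 and 157 CPM against 247, 212 and 277 CPM. Abcc1 had group means of 14.7 CPM in KPG1 and 14.1 CPM in KPG1_PPARaDN. Gstm5 was at 9.38, 9.97 and 9.95 CPM in KP, 7.78, 31.6 and 13.2 CPM in KP_PPARaDN, 9.60, 13.4 and 12.5 CPM in KPG1 and 18.2, 20.9 and 18.5 CPM in KPG1_PPARaDN, so that the KPG1_PPARaDN tumors were above all tumors on the regular diet, whereas KP_PPARaDN replicate 1 was the lowest of the 12 and replicate 3 was below KPG1 replicate 2. Limma voom passed 0 members, and DESeq2, which called 1.74% of all genes, passed 2, Gsta1 (adjusted p = 0.000376) and Gsta4 (adjusted p = 0.0367). Of the other pathway genes 38 were higher and 50 lower, with 1 higher, Pir (0.73 ± 0.23), and 9 lower at an unadjusted p under 0.05, of which Gstz1 (-0.76 ± 0.17), Gstt2 (-0.48 ± 0.13) and Txnip (-0.77 ± 0.26, log2 fold changes) had the smallest p. The 1 higher became 7 without KP replicate 3 and 5 without KP_PPARaDN replicate 3 or KPG1_PPARaDN replicate 2, and the 9 lower became 5 without KP replicate 1 or KPG1_PPARaDN replicate 3. The members' median was -0.05 without KP replicate 2 and -0.00 without KP_PPARaDN replicate 3. It moved the other way to 0.11 without KP_PPARaDN replicate 1 or 2, 0.10 without KPG1 replicate 3 and 0.09 without KPG1_PPARaDN replicate 1. The 2 lower at an unadjusted p under 0.05 became 5 without KP replicate 2, KP_PPARaDN replicate 3 or KPG1 replicate 1, 4 without KP replicate 3, 3 without KP_PPARaDN replicate 1 or KPG1_PPARaDN replicate 2, and 1 without KP replicate 1, KP_PPARaDN replicate 2, KPG1 replicate 3 or KPG1_PPARaDN replicate 1. The share of all genes lower at that level ran from 3.33% without KP_PPARaDN replicate 2 to 7.80% without KP_PPARaDN replicate 3. Alveolar type 2 markers were lower with doxycycline for 8 of 8 (median -0.71, 3 at an unadjusted p under 0.05) and endothelial markers for 6 of 6 (-0.28), while erythroid markers were higher for 4 of 5 (1.06), of which Hba-a2 was 1 of the 3 genes past the adjusted threshold in edgeR (4.62 ± 0.48, adjusted p = 0.0043). Tumor epithelial (0.20) and fibroblast markers (0.32) were higher for 5 of 6 each, 1 of each at an unadjusted p under 0.05. Ciliated (-0.44) and club cell markers (-0.11) were lower for 4 of 5 each. Their part in the members' levels was not tested.

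Averaged over both diets, 28 members were higher and 11 lower in the Slc2a1-floxed groups, with a median log2 fold change of 0.09, beside -0.01 over all genes tested. None passed the adjusted threshold in edgeR, which 8 genes (0.0484%) passed, nor in DESeq2 or limma voom. At an unadjusted p under 0.05, 3 were higher (beside 2.15% of all genes) and 0 lower (beside 2.37%), namely Mgst1 (0.53 ± 0.18), Gstt1 (0.49 ± 0.17) and Gstm2 (0.48 ± 0.19) on the log2 scale. With sex as a covariate 0 were higher (beside 2.18% of all genes) and 1 lower (beside 2.69%) at that level. None of the 3 kept it, although 29 members were higher in all. Left out in turn, the tumors gave 23 to 31 members higher and medians of 0.04 (without KP replicate 2) to 0.15 (without KP_PPARaDN replicate 3). Markers of macrophages (7 of 7, median -1.04), leukocytes (4 of 4, -0.96) endothelial cells (6 of 6, -0.46), fibroblasts (5 of 6, -0.44) and tumor epithelium (5 of 6, -0.18) were lower in the floxed groups, and ciliated cell markers were higher (5 of 5, 0.34), and their part was not tested. Gstm2 was at 46.1, 51.2 and 52.4 CPM in KP, 37.9, 30.6 and 54.4 CPM in KP_PPARaDN, 62.3, 72.0 and 93.1 CPM in KPG1 and 37.2, 62.8 and 58.3 CPM in KPG1_PPARaDN, with the KPG1 tumors above all others except KPG1_PPARaDN replicate 2. Of the other pathway genes 55 were higher and 33 lower, with Idh1 (0.39 ± 0.13), Gstm7 (0.86 ± 0.30) and Gstt2 (0.36 ± 0.13) the 3 with the smallest unadjusted p of those that were higher and Cbr2 (-2.40 ± 0.78, log2 fold changes) the 1 lower at an unadjusted p under 0.05. The 4 higher at that level became 8 without KP_PPARaDN replicate 3 or KPG1 replicate 1, 7 without KP replicate 3 and 2 without KPG1_PPARaDN replicate 3. The 1 lower became 4 without KP replicate 2 and 3 without KP_PPARaDN replicate 3. It became 2 without KP replicate 1, KPG1 replicate 1 or 3, or KPG1_PPARaDN replicate 3.

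Whether the difference with doxycycline depended on the Slc2a1 genotype was tested with the interaction, the log2 fold change in the floxed groups minus that in the wild-type groups. For 34 of 39 members it was negative and for 5 positive, with a median of -0.54 on the log2 scale, beside 0.03 over all genes tested. A low KP tumor or a high KPG1 tumor lowers the interaction, and the same tumors enter the comparisons above. No member passed the adjusted threshold in edgeR, in which 0% of all genes passed, nor in DESeq2 or limma voom, and the smallest adjusted p of a member was 0.35. At an unadjusted p under 0.05, 10 members were negative (beside 4.94% of all genes) and 0 positive (beside 6.87%), so a dependence on genotype was not shown for any single member. With sex as a covariate 30 members were negative, 1 of them at that level (beside 2.01% of all genes), and the median was -0.49. The interaction was also negative for 5 of 6 fibroblast markers (median -1.31, 2 at an unadjusted p under 0.05), 6 of 6 endothelial (-0.78), 4 of 5 erythroid (-0.59), 5 of 6 tumor epithelial (-0.44) and 6 of 8 alveolar type 2 markers (-0.21), and positive for 4 of 5 ciliated cell (1.00) and 3 of 4 leukocyte markers (0.67), and their part in the members' values was not tested. The interaction was -3.53 ± 1.14 for Nqo1, -3.32 ± 1.06 for Gsta1, -1.77 ± 0.60 for Gstp1 and -1.08 ± 0.38 for Cbr1 (edgeR adjusted p = 0.35 for the first 3 and 0.36 for Cbr1).

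Gstp1, the pi-class transferase, was at 15.3, 20.04 and 39.2 CPM in KP, 40.6, 43.0 and 69.1 CPM in KP_PPARaDN, 34.8, 66.5 and 45.2 CPM in KPG1 and 16.4, 31.7 and 39.7 CPM in KPG1_PPARaDN. Its KP_PPARaDN tumors were above all KP tumors, while its KPG1_PPARaDN tumors lay below KPG1 apart from an overlap through KPG1 replicate 1. Gstp2, 98.2% identical to Gstp1 over 707 bases, had 11.9% as many counts. By role, the interaction was negative for all 10 cytosolic transferases (median -0.94), all 5 thioredoxin and peroxiredoxin genes (-0.34), all 4 genes of glutathione synthesis and recycling (-0.61) and all 3 ferritin and export genes (-1.53), and positive for both regulators (0.12). Without KPG1_PPARaDN replicate 1 the log2 fold change of Nfe2l2 in KPG1_PPARaDN against KPG1 was -0.0029, beside 0.18 in KP_PPARaDN against KP. Of the 88 other pathway genes 64 were negative and 24 positive (median -0.38), with 10 and 3 at an unadjusted p under 0.05. Ptges (-2.72 ± 0.78), the peroxiredoxin Prdx5 (-1.58 ± 0.50) and Slc7a11, which imports the cystine that feeds glutathione synthesis (-2.81 ± 0.94, log2 scale), had the smallest unadjusted p of the negative ones, and Gstt2 (0.84 ± 0.25), Akr1c18 (3.26 ± 1.18) and Hpgds (2.31 ± 0.95) of the positive ones. The 10 negative became 6 without KP replicate 2. The 3 positive became 5 without KPG1 replicate 3 or KPG1_PPARaDN replicate 2, and 2 without KP_PPARaDN replicate 1 or 2 or KPG1 replicate 2. Slc7a11 had group means of 6.81 ± 1.32 CPM (SD, n = 3) in KP, 16.3 ± 15.6 CPM in KP_PPARaDN, 25.0 ± 10.9 CPM in KPG1 and 8.53 ± 5.41 CPM in KPG1_PPARaDN. Its KPG1 tumors were above all KP and all KPG1_PPARaDN tumors, and the KP_PPARaDN tumors overlapped each other group.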

How the data were processed

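Members, roles, markers and the other pathway genes were chosen with earlier results of these data known. Single-end reads of a stranded mRNA kit were trimmed (Cutadapt) and aligned (HISAT2, mm10), and the authors deposited unnormalized counts per gene. The submitters' processing notes list featureCounts 1.4.4, and the annotation and strand setting are not given in the sources used here. The deposited log2 values per gene were not used. Columns matching no sample numbered 0, and all 37 mitochondrial genes were listed at 0.

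Counts were fitted with edgeR 4.0.16 (TMM, filterByExpr, glmQLFTest, R 4.3.3) over all 16527 genes, fitting all 12 tumors jointly (8 residual degrees of freedom, biological coefficient of variation 0.44) and Benjamini-Hochberg adjustment, and the code was tested on simulated counts. A standard error is the fold change over the square root of F. TPM used exon lengths of GENCODE M21. Alternatives were DESeq2 1.42.0, limma 3.58.1 voom, upper-quartile scaling, no filter, the compared groups alone, sex, a replicate block, tumors of a mouse summed, and each tumor left out. Total counts of 25263794 to 32654223 limit only low genes. P-values measure the spread between tumors, some of one mouse.

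Values in every tumor are given for Nfe2l2, Keap1 and 6 targets and, per comparison, for up to 4 members per direction with the smallest unadjusted p under 0.05. Of the other pathway genes (90 of 92 matched, 88 tested) up to 3 per direction are named by the same rule. Gsto1, Fth1, Prdx1, Gstm1, Sod1 and the other members named by role or overlap were named after their values were seen. A further allele of the mice and 1 marker gene are not reported here.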

Additional observations from a re-analysis of the deposited data

How the results depend on the processing

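DESeq2 moved 2 counts of members called from 0 to 2, in KP_PPARaDN against KP and for doxycycline over both genotypes. Under limma voom, no filter on low counts, upper-quartile scaling, sex as a covariate, tumors of the same mouse summed, and each tumor left out in turn, the count of members called stayed at 0 in all 7 comparisons, as it did with the compared groups alone in the 4 pairwise comparisons, the ones fitted that way. The members' median log2 fold change kept its sign under these settings and moved by less than the spread between tumors (0.21), except that for doxycycline over both genotypes it turned to -0.05 without KP replicate 2 and to -0.00 without KP_PPARaDN replicate 3. Leaving out each tumor gave medians of 0.18 to 0.48 in KP_PPARaDN against KP, -0.40 to -0.18 in KPG1_PPARaDN against KPG1, 0.29 to 0.55 in KPG1 against KP and -0.64 to -0.39 for the interaction. DESeq2 called 372, 211, 60, 155, 288, 39 and 286 of all genes in the 7 comparisons, in the order of the report, where edgeR called 1, 1, 6, 5, 3, 8 and 0. Of the 88 other pathway genes DESeq2 called 2, 2, 0, 1, 2, 0 and 1. Settings other than DESeq2 called at most 13 genes in any comparison, with KP_PPARaDN against KP at 0 to 2 and the interaction at 0. The cause was not tested.

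Among the gene and comparison pairs whose fold change is printed, and those of Slc2a1 and Ppara, 4 changed sign. Slc2a1 in KPG1_PPARaDN against KPG1 was -0.03, and 0.17 with sex as a covariate, 0.076 with tumors of a mouse summed and -0.25 to 0.29 with a tumor left out. In KPG1 against KP it was -0.01, and 0.00188 with DESeq2, 0.00701 with no filter and -0.34 to 0.22 with a tumor left out. Ppara in that comparison was -0.12, and 0.13 with tumors of a mouse summed and -0.40 to 0.14 with a tumor left out. Nfe2l2 in KPG1_PPARaDN against KPG1 was 0.22, and -0.0029 to 0.35 with a tumor left out.

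Replicate numbers are only names here: the deviations of the 18 same-numbered pairs correlated at -0.19 to 0.127 and those of other pairs at -0.232 to 0.23. With the replicate number as a block, 0 members were called and the medians were 0.33, -0.30, 0.38 and -0.19 in the 4 pairwise comparisons, and no member's call changed, while the genes called in all 7 comparisons were 0, 2, 4, 3, 4, 5 and 0. Sex as a covariate left the members' medians on the same side of 0 but lowered the leading counts at an unadjusted p under 0.05 in the 4 pairwise comparisons, the interaction and the floxed groups over both diets, as given in the report. The share of all genes at that level in either direction fell too in the 4 pairwise comparisons. It went from 11.4%, 10.8%, 6.23% and 9.69% to 8.85%, 4.06%, 4.01% and 6.41%. For the interaction it went from 11.8% to 5.21%, and for the floxed groups over both diets from 4.53% to 4.87%. With 3 tumors per group and a biological coefficient of variation of 0.44, small changes of single genes are not detectable and large ones can be missed. In KP_PPARaDN against KP, Gsta1 was not called in edgeR at a log2 fold change of 4.52. A count of 0 members called therefore does not show that the members did not change. Counts of 2 to 7 limit Gsta1 in KP.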
